A study of Mus musculus with 4 samples.

Results

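The transcripts of 8 structural proteins of peripheral myelin, Mbp, Pmp22, Prx, Mag, Cnp, Mal, Pmp2 and Gjb1, were followed in mouse sciatic nerve. They were taken by gene symbol from a table of 50593 genes, and all 8 were found in it. The samples were sciatic nerves of 2 mice labelled HSF V30M and 2 mice labelled HSF WT, all 6 months old and labelled with the strain 129S1/SvImJ. Both groups carried the heterozygous deletion of Hsf1, the gene of the heat shock factor HSF1. HSF V30M mice carried in addition the human transthyretin (TTR) V30M transgene and lacked the endogenous Ttr gene, while HSF WT mice carried no transgene. The promoter of the transgene is not given in the sources used here. RNA was sequenced to ask whether the chemokine response is impaired in the nerve of this model of hereditary TTR amyloidosis, and the myelin genes are read here from the same table.

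Myelin is the stack of Schwann cell membrane that is wound around an axon and insulates it. In compact myelin the membrane layers are pressed together by adhesion and cytoplasmic proteins, whereas channels of cytoplasm remain at the incisures, at the paranodes and along the inner and outer turns. Compact myelin needs balanced amounts of its proteins, and mutations of PMP22, GJB1, PRX and PMP2 cause forms of Charcot-Marie-Tooth disease, the inherited neuropathy of myelin and axon.

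The deposited table holds 1 value per gene and group, the FPKM (fragments per kilobase, a level per length of transcript that is scaled to the depth of the libraries) that the authors' Cuffdiff run estimated over the 2 libraries of a group. No value per mouse is given, so that the spread between mice is not known, and the differences below are given without a test. The p-values and calls that the authors' program wrote into the same table were not used. As a check of the labels, Ttr was at 6.10 FPKM in the nerve labelled HSF V30M, which lacks the mouse gene by design, and was listed at 0 in the nerve labelled HSF WT. HSF WT mice are not described as lacking the mouse gene, so these values run opposite to the state of the mouse gene. Whether these are reads of the human transgene cannot be told from this table, so the check did not settle the labels. The groups are named as labelled throughout. Hsf1 was at 7.94 FPKM in HSF V30M and at 14.95 FPKM in HSF WT, a fold of 1.88, although both groups are described with the same heterozygous deletion. The reason for this difference was not tested. Genes of central myelin were near 0, with Omg the highest at 1.34 FPKM in both groups, and the summed level of the 6 central myelin genes listed was 2.70 and 2.71 FPKM, with Opalin and Ermn listed at 0 in HSF WT. In each group the 2 highest pile-ups of low values among single-transcript genes were taken as 1 fragment of each of its 2 libraries. The number of 2 was set beforehand, and the settings of the search differed between the groups. On this reading the libraries were 1.17-fold apart in depth in HSF V30M and 1.35-fold apart in HSF WT.

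All 8 myelin genes were abundant in both groups, and their order by level was the same at 8 of 8 places. Mbp was the highest at 3854 FPKM in HSF V30M and 3441 FPKM in HSF WT. Pmp2 was the lowest, with 56.3 and 47.0 FPKM. The range from the highest to the lowest gene was 68.5-fold in HSF V30M against 73.2-fold in HSF WT, far wider than the difference of any of these genes between the groups. Since FPKM is a level per length of transcript, these levels can be set against each other only as far as the length taken for each gene holds. That length is uncertain where coding transcripts differ, from 354 to 4797 bases in Mbp and from 338 to 2434 bases in Mag. Of the 8 genes, 5 were above 100 FPKM in both groups, and Mag, Gjb1 and Pmp2 were below it. The closest neighbours in HSF V30M were Mag and Gjb1, with a ratio of 1.03, and those in HSF WT were Gjb1 and Pmp2, with a ratio of 1.33.

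**Figure D1:**
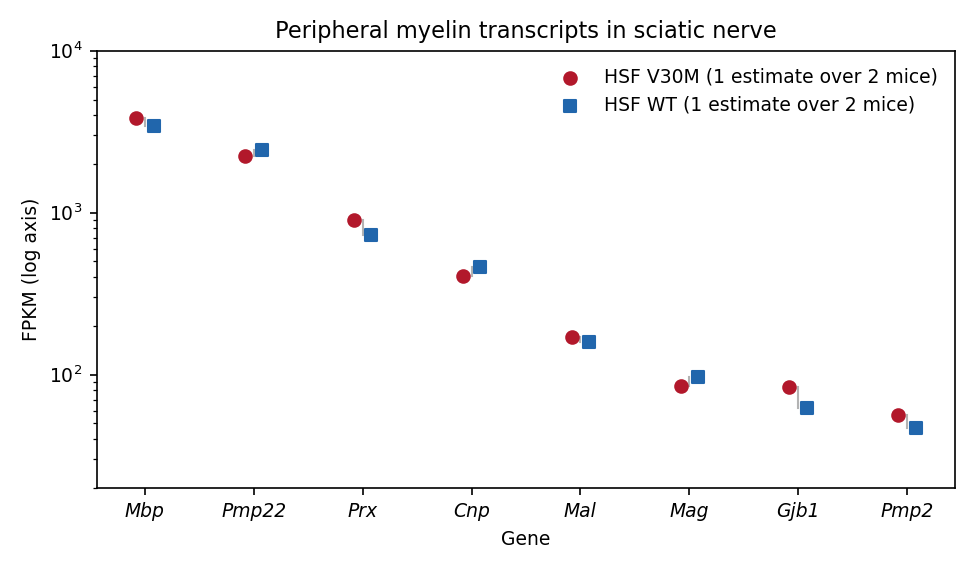
FPKM of the 8 structural myelin genes (vertical log axis) in the groups labelled HSF V30M (red circles) and HSF WT (blue squares), where each point is 1 estimate over 2 mice and no error can be drawn. The genes run from Mbp at 3854 and 3441 FPKM to Pmp2 at 56.3 and 47.0 FPKM, and the 2 points of a gene lie close together in each case.

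Among 21759 protein-coding genes, Mbp was the 4th highest in both groups and Pmp22 the 8th highest in both groups. These ranks and the shares below leave out any of the 23 genes with too many alignments, whatever their level. Prx was at rank 26 in HSF V30M and 38 in HSF WT, and Cnp at rank 86 and 67. Mal was at rank 260 and 294 and Mag at rank 627 and 524. The ranks of Gjb1 were 647 and 916, and those of Pmp2 were 1060 and 1318. Together the 8 genes held 2.18% of the FPKM sum of protein-coding genes in HSF V30M and 2.04% in HSF WT. Their summed FPKM was 7806 and 7438, a ratio of 1.05, and Mbp and Pmp22 made up most of it.

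**Figure D2:**
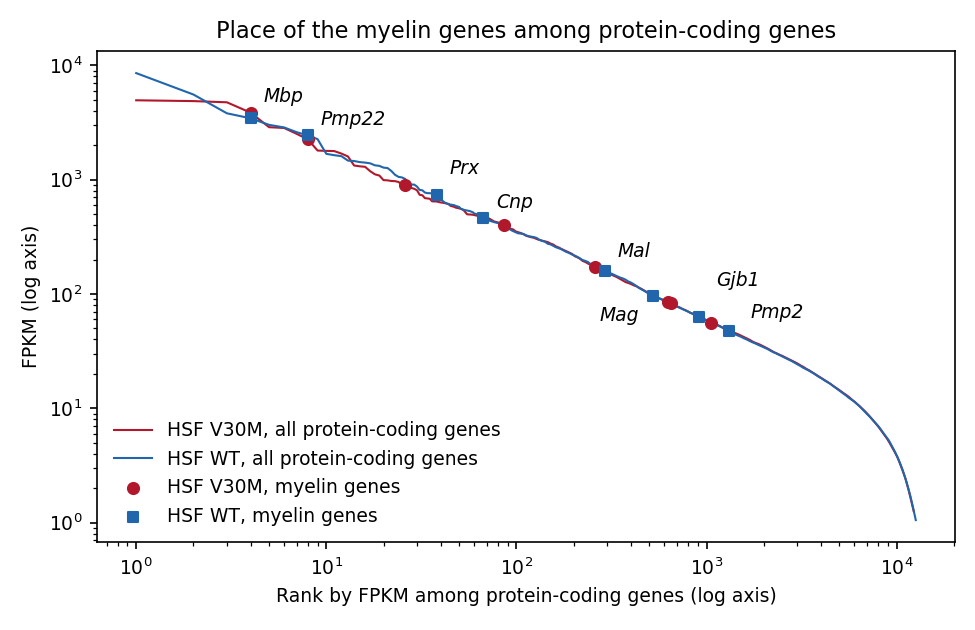
FPKM (vertical log axis) against rank by FPKM among protein-coding genes (horizontal log axis), with a line for all protein-coding genes of at least 1 FPKM in each group and points for the myelin genes. The curves of the groups overlap along the range of the 8 genes, with Mbp at rank 4 and Pmp22 at rank 8 in both and Gjb1 at rank 647 in HSF V30M and 916 in HSF WT.

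None of the 8 genes was past a fold of 1.5 between the groups. Ratios are given as log2((HSF V30M + 1) / (HSF WT + 1)), and on this scale 5 genes were above 0 and 3 were below 0, from -0.19 for Cnp to 0.41 for Gjb1. Their median was 0.13, beside 0.00 over the 15620 genes whose mean of both groups was 1 FPKM or more, a minimum that all 8 myelin genes passed. Over the 4 of them that share their span with no other gene, Pmp22, Mag, Mal and Gjb1, the median was -0.00965. Of those 15620 genes 16.7% were past a fold of 1.5, with 8.22% higher and 8.44% lower in the nerve labelled HSF V30M. Among the 1561 genes at least as abundant as Pmp2, with a mean of 51.6 FPKM or more, 20.2% were past this fold, 12.6% higher and 7.62% lower, and the median was 0.03. A ratio above 0 was held by 50.4% of the 15620 genes and by 53.7% of the 1561 abundant ones.

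The number of fragments behind each value was estimated from the worth of 1 fragment and the transcript length, and an exact Clopper-Pearson interval of the ratio (95%) was drawn from the lowest estimate. These intervals cover counting error only, at the lowest estimate of fragments, and are wide where a gene has short coding transcripts. Their widths are therefore not comparable between genes. Molecules were not tagged before amplification, so its error is not in them, nor is the error between mice. The interval excluded 0 for 6 of the 8 genes, of which Gjb1, Prx, Pmp2 and Mbp were higher and Pmp22 and Cnp lower in the nerve labelled HSF V30M. For Mal and Mag it included 0. The share of all genes whose interval excludes 0 was not computed, so the count of 6 is not read as a trait of the myelin genes. Intervals also narrow as the number of fragments rises, and all 8 genes are abundant. How far 2 mice of the same genotype differ in these genes is not known from this table.

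**Figure D3:**
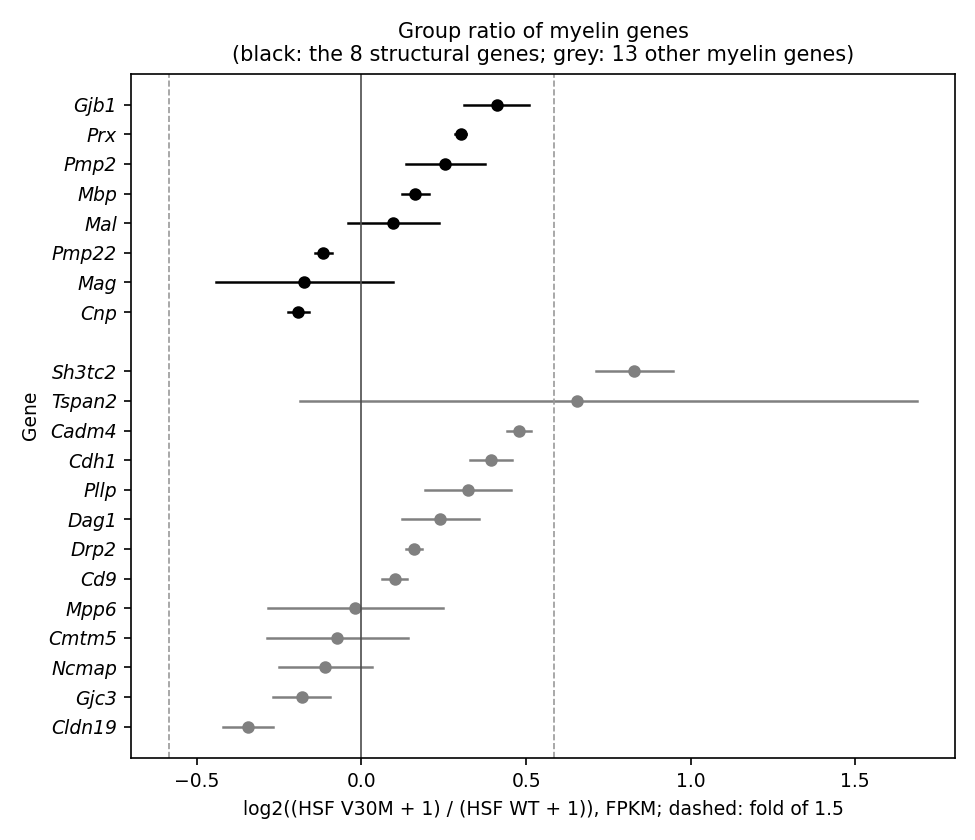
Group ratio on the log2 scale, HSF V30M over HSF WT (horizontal axis, FPKM with 1 added) for the 8 structural myelin genes (black) and 13 other myelin genes (grey), with lines for the 95% interval of counting error and dashed lines at a fold of 1.5. The 8 genes lie between -0.19 and 0.41, inside the dashed lines, and of the other 13 Sh3tc2 and Tspan2 lie beyond them.

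Mbp encodes myelin basic protein, which binds the cytoplasmic membrane faces and closes the major dense line. The gene (ENSMUSG00000041607) spans 82475146 to 82585637 of chromosome 18 in GRCm38, on the plus strand, and has 16 annotated transcripts. Its value of 3854 FPKM in HSF V30M and 3441 in HSF WT gave a log2 ratio of 0.16 (interval 0.12 to 0.20), a fold of 1.12. A ribosomal protein pseudogene on the opposite strand within its span, Rpl21-ps8, was at 0.760 FPKM in HSF V30M and listed at 0 in HSF WT.

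Pmp22 encodes a tetraspan membrane protein of compact myelin, whose dose is known to be critical for the myelin sheath. The gene (ENSMUSG00000018217) lies on the plus strand of chromosome 11 from 63128982 to 63159547 and shares its span with no other annotated gene. It was at 2252 FPKM in HSF V30M and 2440 FPKM in HSF WT, at least 25507 and 19693 fragments. The log2 ratio was -0.12 (interval -0.14 to -0.09), a fold of 1.08, so that Pmp22 stood on the other side of 0 from Mbp. The ratio of Mbp to Pmp22 was 1.71 in HSF V30M against 1.41 in HSF WT.

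Rodent Pmp22 is known to start from alternative promoters, the upstream one used mainly by myelinating Schwann cells and the next one in many tissues, and the FPKM of the gene adds their transcripts. RefSeq gave 4 windows for it, and the first and the second are shown because the value of the gene cannot tell their transcripts apart. The windows run from 250 bases before to 50 bases after an annotated start, from RefSeq on GRCm38.p6, at chr11:63128732-63129031 and chr11:63131207-63131506, both on the plus strand. Capitals mark the motifs searched on both strands, which were the GC box GGGCGG, the EGR2 site GCGTGGGCG, the SOX10 core ACAAAG, the TATA box TATAAA and the CCAAT box CCAAT.
Pmp22 first start: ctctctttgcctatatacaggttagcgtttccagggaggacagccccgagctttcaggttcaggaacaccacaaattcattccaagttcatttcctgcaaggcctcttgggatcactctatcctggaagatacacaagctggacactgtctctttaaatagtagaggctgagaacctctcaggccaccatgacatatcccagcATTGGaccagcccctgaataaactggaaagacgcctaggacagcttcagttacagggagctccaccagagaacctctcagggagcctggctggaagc
Pmp22 second start: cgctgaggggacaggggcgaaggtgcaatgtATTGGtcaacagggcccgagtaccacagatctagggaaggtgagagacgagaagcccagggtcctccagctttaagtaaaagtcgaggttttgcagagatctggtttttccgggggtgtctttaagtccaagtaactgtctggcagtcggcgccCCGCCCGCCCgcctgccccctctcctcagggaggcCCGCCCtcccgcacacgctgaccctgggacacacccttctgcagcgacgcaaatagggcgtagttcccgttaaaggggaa
The first window held 50.7% G and C with 3 CpG dinucleotides and no GC box, while the second held 60.0% with 18 CpG dinucleotides and 3 GC boxes, of which 2 overlap. Each of these had 1 CCAAT box, read on the minus strand. The third and the fourth window, which overlap, held 66.3% and 72.3% G and C with 20 and 30 CpG dinucleotides, and GC boxes were found in the fourth.

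Pmp2 encodes myelin protein P2, a small fatty acid binding protein that stacks on the cytoplasmic face of the membrane. The gene (ENSMUSG00000052468) is annotated on the minus strand of chromosome 3 from 10179851 to 10183929 with 1 transcript of 1408 bases. It was at 56.3 FPKM in HSF V30M and 47.0 FPKM in HSF WT, which stand for 1472 to 1726 and 876 to 1180 fragments. The log2 ratio was 0.25 (interval 0.14 to 0.37), a fold of 1.197. Gm37389, a longer gene on the same strand that covers nearly the whole of Pmp2, was listed at 0 in both groups.

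Mal encodes a proteolipid of lipid rafts that takes part in sorting membrane proteins to myelin. The gene (ENSMUSG00000027375) lies on the minus strand of chromosome 2 from 127633226 to 127656695. It stood at 171 FPKM in HSF V30M and 160 FPKM in HSF WT, the smallest difference of the 8 genes, with a fold of 1.07. The log2 ratio of 0.10 had a counting interval from -0.04 to 0.24, so a difference was not detectable by the lowest estimate of its fragments, 1057 and 704.

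The proteins of uncompacted membrane were on both sides of 0. Mag, the myelin-associated glycoprotein of the innermost turn that faces the axon, was at 85.7 FPKM in HSF V30M and 96.8 FPKM in HSF WT. Its log2 ratio was -0.17 with an interval from -0.44 to 0.10, which is wide because the shortest annotated coding transcript has 338 bases and the lowest estimate is then 256 and 206 fragments. The gene (ENSMUSG00000036634) is on the minus strand of chromosome 7 from 30899176 to 30914873. Cnp, the phosphodiesterase CNPase that keeps cytoplasmic channels open, was at 404 FPKM in HSF V30M and 461 FPKM in HSF WT, with a log2 ratio of -0.19 (interval -0.22 to -0.16) and a fold of 1.14. The ratio of Cnp to Mag was 4.71 in HSF V30M against 4.77 in HSF WT, so that these genes kept nearly the same proportion. Cnp (ENSMUSG00000006782, plus strand of chromosome 11, 100574904 to 100591729) shares 8912 bases of its span with Dnajc7 on the opposite strand, a cochaperone gene that was at 80.7 FPKM in HSF V30M and 101 FPKM in HSF WT. Whether the counting used strand is not given in the sources used here, so reads of the shared bases may stand under either gene.

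Gjb1 encodes connexin 32, whose gap junctions link the layers of uncompacted myelin within a Schwann cell. It had the largest difference of the 8 genes, with 83.4 FPKM in HSF V30M and 62.5 FPKM in HSF WT, or 2372 to 2935 against 1266 to 1799 fragments. The log2 ratio was 0.41 (interval 0.31 to 0.51), a fold of 1.33. Of the 1561 genes at least as abundant as Pmp2, 31.9% had a ratio at least as far from 0. Gjb1 (ENSMUSG00000047797) lies on the plus strand of the X chromosome from 101376378 to 101385629 and shares its span with no other annotated gene.

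Gjb1 is also known to start from separate promoters, a distant one used in liver and one close to the coding exon used in nerve. RefSeq gave 4 windows for it, and the first and the last are shown, since the gene's FPKM adds transcripts from all of them. They lie at chrX:101376126-101376425 and chrX:101383482-101383781 on the plus strand, with starts that are 7792 and 436 bases before the start codon in the genome. Capitals mark the same motifs.
Gjb1 first start: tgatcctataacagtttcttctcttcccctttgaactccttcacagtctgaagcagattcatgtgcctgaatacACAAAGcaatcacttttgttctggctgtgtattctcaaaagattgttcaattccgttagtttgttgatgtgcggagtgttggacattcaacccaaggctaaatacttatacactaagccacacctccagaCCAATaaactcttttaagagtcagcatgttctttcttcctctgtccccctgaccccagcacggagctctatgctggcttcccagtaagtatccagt
Gjb1 last start: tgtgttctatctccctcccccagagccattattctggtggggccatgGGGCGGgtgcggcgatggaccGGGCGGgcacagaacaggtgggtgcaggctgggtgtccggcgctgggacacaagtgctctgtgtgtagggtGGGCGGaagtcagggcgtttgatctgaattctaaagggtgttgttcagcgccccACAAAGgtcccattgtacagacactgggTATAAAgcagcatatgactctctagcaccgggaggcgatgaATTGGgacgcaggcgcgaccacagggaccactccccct
The first window held 43.3% G and C with 3 CpG dinucleotides, and the last held 60.0% with 15. The last held 3 GC boxes and a TATA box, neither of which the first held, and both had 1 SOX10 core and 1 CCAAT box.

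RefSeq gave 14 such windows for 6 of the 8 genes, Cnp, Gjb1, Mag, Mal, Pmp22 and Prx. The SOX10 core was found in 5 of the 14, in Cnp, Gjb1 and Mag, against 18.7% of all 32851 windows. A GC box was found in 4 windows of Cnp, Gjb1 and Pmp22, against 35.7% of all windows, and a CCAAT box in 8, against 37.4%. The EGR2 site was in none of the 14 windows, and 0.612% of all windows held it. The TATA box was in 1 window, against 13.6% of all. Windows of the same gene can overlap, as those of Mag and Pmp22 do, and a match of letters is no more than a description.

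Prx encodes periaxin, a scaffold that ties the outer membrane of the Schwann cell to the basal lamina through DRP2 and dystroglycan. It was at 900 FPKM in HSF V30M and 730 FPKM in HSF WT, with a log2 ratio of 0.30 (interval 0.29 to 0.32) and a fold of 1.23. Its partners were on the same side of 0, with Drp2 at 553 FPKM in HSF V30M and 495 in HSF WT and Dag1, the dystroglycan gene, at 272 and 230 FPKM. The ratio of Prx to Drp2 was 1.63 in HSF V30M against 1.47 in HSF WT. Prx (ENSMUSG00000053198, plus strand of chromosome 7, 27499324 to 27520214) shares 5405 bases with the antisense gene Gm15541. Gm15541 itself was at 29.1 FPKM in HSF V30M and at 15.997 FPKM in HSF WT, and without strand its reads and those of Prx cannot be told apart.

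The gene models of the 8 genes had little else in common. The longest coding sequence ran from 396 bases in Pmp2 to 4173 bases in Prx, and the span of the gene from 4079 bases in Pmp2 to 110492 bases in Mbp. The number of annotated transcripts was 1 for Pmp2 and 16 for Mbp.

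A list of 13 other genes of peripheral myelin was read beside the 8, and all 13 passed the minimum of 1 FPKM. Of these, 8 had a ratio above 0 and 5 below 0, with a median of 0.16. Past a fold of 1.5 were 2 of the 13, both higher in the nerve labelled HSF V30M, where 8.22% of the 15620 genes were past it in this direction. Sh3tc2, a Schwann cell endocytic protein mutated in Charcot-Marie-Tooth disease, was at 27.2 FPKM in HSF V30M and 14.9 FPKM in HSF WT, a log2 ratio of 0.83 (interval 0.71 to 0.95). Tspan2, a tetraspanin, was at 5.86 and 3.36 FPKM with a log2 ratio of 0.65, and its counting interval from -0.19 to 1.69 included 0. By level Cd9, another tetraspanin, was the highest of the 13 with 646 FPKM in HSF V30M and 602 FPKM in HSF WT. The lowest ratio of the 13 was that of Cldn19, a claudin of the tight junctions of myelin, at 189 FPKM in HSF V30M and 240 FPKM in HSF WT.

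Junction and scaffold proteins of uncompacted myelin were likewise on both sides of 0. Cdh1, the E-cadherin of the junctions between turns, was at 88.5 FPKM in HSF V30M and 67.1 FPKM in HSF WT. Cadm4, which holds the Schwann cell to the axon along the internode, was at 410 and 294 FPKM. Gjc3, which encodes connexin 29, was at 27.7 and 31.6 FPKM, and the ratio of Gjb1 to Gjc3 was 3.01 in HSF V30M against 1.98 in HSF WT. Mpp6, a scaffold of the incisures, was at 18.4 and 18.7 FPKM.

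Genes of the same protein families as the 8 were read as well. Emp1 and Emp3, of the family of Pmp22, were at 49.6 and 40.9 FPKM in HSF V30M and at 68.9 and 55.4 FPKM in HSF WT, while Emp2 of the same family was on the other side of 0 with 45.1 and 39.3 FPKM, all far below Pmp22. Fabp4, the adipocyte fatty acid binding protein, is a neighbour of Pmp2 on chromosome 3 and was more abundant than it, with 462 FPKM in HSF V30M and 722 FPKM in HSF WT and a log2 ratio of -0.64. Pmp2 had a ratio of the opposite sign. Of the 12 relatives, 9 passed the minimum of 1 FPKM with a median log2 ratio of -0.19, and Fabp4 and Fabp7 were past a fold of 1.5, both lower in HSF V30M, where 8.44% of the 15620 genes were past it in this direction. Fabp7, the fatty acid binding protein of immature glia, was at 0.420 and 1.84 FPKM, near the minimum. These values stand for 5 to 7 fragments in HSF V30M and 17 to 26 in HSF WT. Mal2, a relative of Mal, and Gjb2 and Gjb6, relatives of Gjb1, were each below 1 FPKM in both groups, whereas the connexin gene Gja1 was at 21.2 and 20.8 FPKM.

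**Figure D4:**
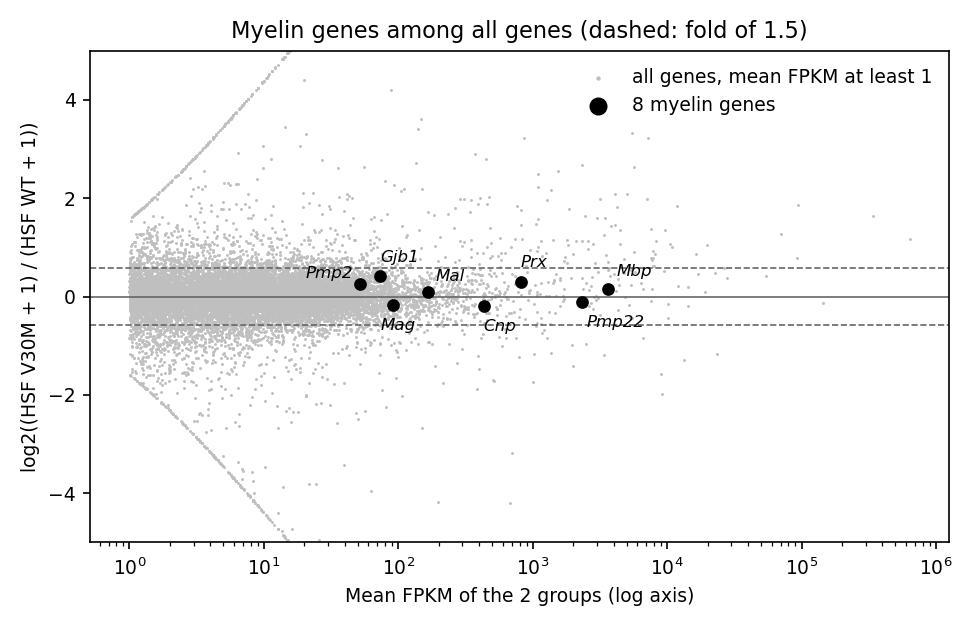
Group ratio on the log2 scale, HSF V30M over HSF WT (vertical axis) against the mean FPKM of the 2 groups (horizontal log axis) for the 15620 genes that passed the minimum (grey) and the 8 structural myelin genes (black), with dashed lines at a fold of 1.5. The 8 genes lie between the dashed lines, the 2 slanted edges are genes listed at 0 in 1 group, and 98 genes lie beyond the limits of the vertical axis.

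Marker lists of other cell types in the nerve were read beside the 8 myelin genes. Over 7 general Schwann cell markers the median log2 ratio was 0.12, with 4 above 0 and 3 below 0. Of these, S100b at 328 FPKM in HSF V30M and 201 FPKM in HSF WT and Foxd3 at 17.8 and 6.55 FPKM were past a fold of 1.5, and the lowest ratio was that of Matn2 at 76.3 and 101 FPKM. Sox10, the transcription factor that drives myelin genes with EGR2, was at 75.7 and 54.8 FPKM. Markers of non-myelinating Schwann cells had a median of -0.13 over 5 genes, among which Gfap was past the fold at 2.28 and 8.77 FPKM. The medians of fibroblast, perineurium and endothelium markers were 0.01, 0.24 and 0.10.

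The lists furthest from 0 were those of cells outside the nerve fibre. Skeletal muscle markers were lower in the nerve labelled HSF V30M in 5 of 5 genes, with a summed level of 38.6 FPKM in HSF V30M and 143 FPKM in HSF WT. Adipocyte markers were lower in 4 of 4 genes with a median log2 ratio of -0.59 and summed to 669 and 1011 FPKM. Macrophage markers were lower in 4 of 5 with a median of -0.50 and summed to 70.5 and 99.7 FPKM. The 4 B lymphocyte markers summed to 1.79 and 18.4 FPKM, and the 3 that passed the minimum were lower. Erythrocyte markers were higher in 3 of 3 genes, with a median of 1.55 and sums of 134 and 44.3 FPKM, and neutrophil markers in 4 of 4, with sums of 94.5 and 21.8 FPKM. Their part in the ratios of the 8 myelin genes was not tested, and in whole nerve fewer cells of a type cannot be told apart from less RNA per cell. The summed levels of muscle, blood and immune markers were each below 2% of the 7806 and 7438 FPKM of the myelin genes, and those of adipocyte markers were 8.57% and 13.6% of it. These percentages describe sums over a few chosen markers and are no measure of the share of cells or of RNA.

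**Figure D5:**
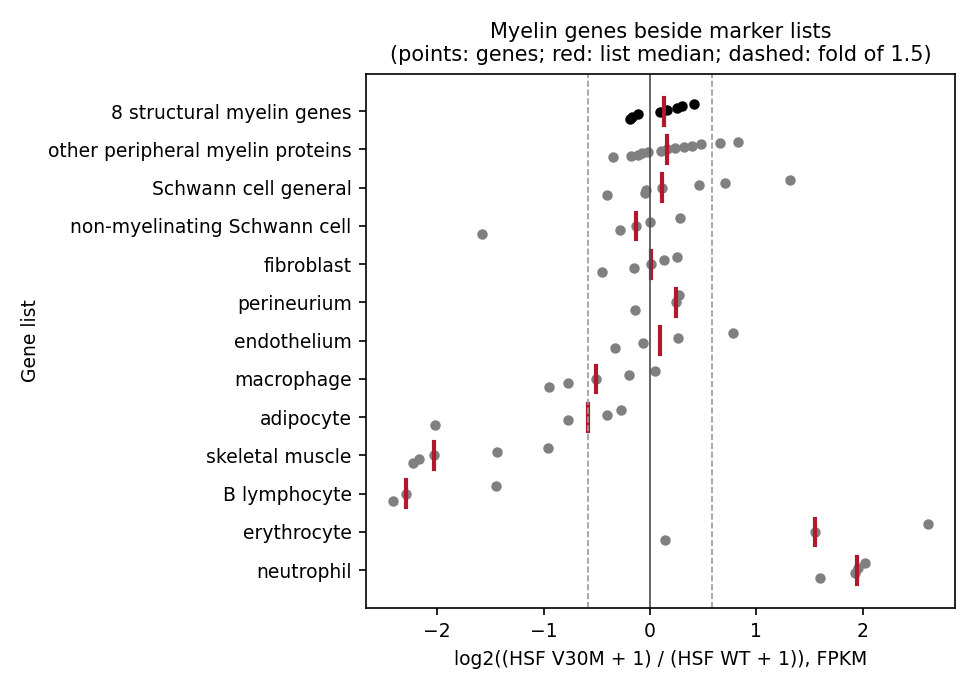
Group ratio on the log2 scale, HSF V30M over HSF WT (horizontal axis) for the genes of each list that passed the minimum of 1 FPKM, with a red bar at the list median and dashed lines at a fold of 1.5. The 8 structural myelin genes have a median of 0.13 (-0.00965 over the 4 with a span of their own) and lie between the dashed lines, while the medians are -2.03 for skeletal muscle, -2.29 for B lymphocytes and 1.94 for neutrophils.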

How the data were processed

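The 8 genes and all gene lists were chosen with earlier results of these data known. Nerve RNA of 2 mice per group was sequenced from Ion Torrent libraries. Reads were aligned by the authors to GRCm38, the C57BL/6J genome, and the submitters' processing notes name STAR, Cufflinks and Cuffdiff, whose versions and options are not given in the sources used here. The deposited FPKM values are the authors' Cuffdiff estimates, 1 per gene and group. They carry decimal commas under an incomplete header line and were read by position, and the letters A and G of the table, which the sample titles share, gave the groups. The authors' fold changes, p-values, q-values and calls in the same table were not used, and 23 genes with too many alignments were left out.

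Ratios were taken on the log2 scale with a pseudocount of 1, over genes whose mean FPKM was 1 or more, and a fold of 1.5 on this scale was counted as past. With 1 value per group no test was made. Of the other myelin genes, the highest and lowest and those past the fold are named, and marker lists are given by counts and medians with a few examples. Some genes planned for the list of other myelin proteins are not reported here. Partners, junction proteins and relatives of the 8 genes were named in addition after their values were seen. The lists were other peripheral myelin proteins, protein relatives, central myelin, general and non-myelinating Schwann cells, fibroblasts, perineurium, endothelium, skeletal muscle, adipocytes, macrophages, erythrocytes, neutrophils and B lymphocytes.

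Low FPKM values of 11394 genes with 1 transcript and a locus of their own were multiplied by the transcript length less 200 bases, in kilobases. The 200 bases were chosen on the HSF WT values alone. For HSF V30M only the shorter of these transcripts were used, and peaks were sought with wider smoothing. The depth ratios of the groups are therefore not strictly comparable. The 2 highest peaks of these products were kept in each group, at 0.0394 and 0.0462 in HSF V30M and at 0.0481 and 0.0648 in HSF WT. They were taken as the worth of 1 fragment in each library. The lowest number of fragments uses the shortest coding transcript and the larger worth, and the highest uses the longest and the smaller worth. Gene models are from GENCODE M21 (GRCm38), in which 50369 identifiers were found and 224 were not. Calculations were made in Python 3.11.15 with pandas 2.3.3, numpy 2.4.6 and scipy 1.17.1, were tested on simulated data, and were plotted with matplotlib 3.10.9. The simulated peaks were set close to those found here, so that test checks the code and not the reading of depth.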

Additional observations from a re-analysis of the deposited data

How the results depend on the processing

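No paired analysis was possible because mice have no values of their own in this table, and so replicates could not be left out in turn either. The number of the 8 genes past a fold of 1.5 was 0 with a pseudocount of 0.1, with median-of-ratios scaling, with scaling to the FPKM sum of protein-coding genes, with a minimum mean of 5 or none, and with a fold of 2. The minima left out none of the 8 genes, which all had a mean of at least 51.6 FPKM, so neither count nor median could change. A fold of 2 could not raise a count that was 0 at a fold of 1.5. The median log2 ratio of the 8 genes was between 0.126 and 0.153 under these scalings and with a pseudocount of 0.1. With no pseudocount, a setting chosen after seeing the data, this median was 0.130. It was -0.00965 over the 4 genes that share their span with no other gene, an alternative also chosen after seeing the data, which leaves out Mbp, Prx, Cnp and Pmp2. None of 24 recomputed ratios of single genes differed in sign, and the largest shift was 0.0232. The ratio closest to 0 was that of Mal at 0.096, so shifts of this size could not turn a sign. With scaling to the FPKM sum of protein-coding genes, Prx moved to 0.325, beyond its counting interval of 0.285 to 0.318. Of the 13 other myelin genes, 2 were past a fold of 1.5, 1 with a minimum mean of 5, where Tspan2 is left out, and 0 with a fold of 2. The error between mice is not known. The counting intervals of Mal, Mag and Tspan2 include 0 at the lowest estimate of their fragments, which takes the shortest coding transcript. The highest estimates are far larger, as for Mag with 4862 fragments in HSF V30M and 4493 in HSF WT. No interval was drawn from them.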
